A study of Mus musculus with 9 samples.

Results

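The genes described here encode the proteins of the cytosolic ribosome. They were taken by symbol: Rpl or Rps followed by a digit, without the Rps6k kinases and without pseudogenes, together with Rpsa, Rplp0, Rplp1 and Rplp2. The rule found 89 of the 23201 named genes, 54 with large subunit symbols and 35 with small subunit symbols. Of these, 77 encode the standard proteins of the particle (46 of the large subunit and 31 of the small subunit) and are called the core genes. A further 11 are paralogs or gene copies, such as Rpl22l1, Rpl37rt and Rps27rt. Rps19bp1, which the symbol rule also takes, encodes a nucleolar binding partner of Rps19 and is no ribosomal protein. Each gene is represented by the transcript with its highest mean level.

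RNA came from the cerebral cortex of mouse embryos at E13.5, the embryonic stage of early cortical neurogenesis, labelled as holding neural stem cells and neurons. There were 3 embryos labelled as homozygous Sfpq knockouts, 3 labelled as heterozygous Sfpq knockouts and 3 labelled as controls, with 1 library per embryo. Sfpq is a nuclear RNA-binding protein, and the study asks what its loss does to the expression of long neuronal genes. All 9 embryos carry the same strain label, C57BL/6+C57BL/6J+CBA. The labels name neither the allele, nor any Cre driver, nor the exact genotype of the controls. Ribosomal RNA was removed from total RNA before sequencing, so polyadenylated and other transcripts were both sequenced. Levels are RPKM, read numbers scaled by transcript length and library size, and a log2 change is a difference of log2(RPKM + 0.5) between group means.

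A ribosome pairs a small subunit, which reads the mRNA, with a large subunit, which joins amino acids and carries the exit tunnel for the new protein. Most of its proteins are needed in equal amounts, and unassembled ones are degraded. Their genes are short, among the most highly transcribed of dividing cells, and many carry small nucleolar RNAs (snoRNAs) in their introns. Their mRNAs begin with a run of pyrimidines, the 5' terminal oligopyrimidine (TOP) motif, through which mTORC1 controls their translation. In the embryonic cortex, ribosome production is high in dividing progenitors and declines as neurons mature.

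The start regions of 6 core genes and the paralog Rpl22l1 are shown because that pyrimidine run is a sequence many members share and the symbol rule did not use. Each window runs from 5 bases before to 25 bases after the start of the gene in RefSeq (GRCm38.p6), 5' to 3' on the strand of the gene, and capitals mark its longest run of C and T. The first 4 are genes called higher in homozygous cortex, and the last 3 are genes not called there. Rpl14 lies at chr9:120571512-120571541 on the plus strand, Rpl27a at chr7:109519190-109519219 on the plus strand, Rps6 at chr4:86857343-86857372 on the minus strand and Rps10 at chr17:27635220-27635249 on the minus strand. Rpl35 lies at chr2:39005107-39005136 on the minus strand, Rps9 at chr7:3704036-3704065 on the plus strand and Rpl22l1 at chr3:28805503-28805532 on the plus strand.
Rpl14: TCTCTCTTCTCgctgagcgccgccaacatg
Rpl27a: gCTCCTCCCTTTTCCCTTTCTgccaccgcc
Rps6: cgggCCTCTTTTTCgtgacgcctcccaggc
Rps10: cgCCCCTTCCTTTCCagcctccgcctcgga
Rpl35: CTTTCCTCTTTCTCTCgaaccaggctgctt
Rps9: CTCTCTTTgtctcgggcctgagttcgtagg
Rpl22l1: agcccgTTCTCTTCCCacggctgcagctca

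Within the 30 bases shown, the run spans 20 bases in Rpl27a, 16 in Rpl35 and 8 in Rps9. In Rpl14, Rpl35 and Rps9 it begins at the first base shown, so the whole run may be longer. A window of 300 bases around the start was at hand for 57 of the 77 core genes. A run of at least 8 C or T between 25 bases before and 50 bases after the start, on the sense strand, was found in 45 of the 57 (78.95%), against 30.39% of all 27025 genes with a window. It was found in 21 of 25 core genes called higher in homozygous cortex and in 24 of 32 not called. The ETS-type motif CCGGAAG, on either strand of the whole window, was in 24 of 57 core genes (42.11%) and in 9.93% of all genes. The TATAAA motif on the sense strand was in 5 of 57 (8.77%) and in 9.77% of all genes. The YY1-type motif AAGATGGC, on either strand, was also in 5 of 57, against 3.19% of all genes.

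The estimated depth was 167750000 to 203250000 reads per library, read from the steps between low values. Sfpq had 26.09, 28.56 and 27.55 RPKM in homozygous, 185.0, 162.8 and 168.6 RPKM in heterozygous and 184.0, 201.6 and 217.9 RPKM in control cortex. The log2 change was -2.85 ± 0.07 (SE) in homozygous against control cortex (limma adjusted p = 1.22e-09) and -0.22 ± 0.07 in heterozygous against control cortex (limma adjusted p = 0.709). By Xist and 4 Y-linked genes, the homozygous embryos were 1 female and 2 males, the heterozygous embryos 3 males, and the control embryos 2 females and 1 male. The cortical markers Emx1 (means of 44.25, 60.87 and 68.64 RPKM in homozygous, heterozygous and control cortex) and Pax6 (30.38, 28.91 and 29.85 RPKM) were expressed in every library. Of 14 cortex markers 6 were called lower and 2 higher in homozygous than in control cortex (19.9% and 14.4% of all genes). Neurog2 (log2 change -1.34) and Lhx2 (-0.68) were among those lower. Tbr1 (means of 7.411 and 5.906 RPKM in homozygous and control cortex) and Dcx (22.24 and 18.78 RPKM) were above every control library in every homozygous library. Neurod6 (65.01 and 100.2 RPKM) was below every control library in every homozygous library. For Tubb3 (317.6 and 363.8 RPKM) and Bcl11b (6.699 and 6.668 RPKM) the homozygous and control libraries overlapped.

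A few libraries stood apart for single members, chosen for description after their values were seen. Rps18, of the small subunit head, had 1446, 1399 and 862.5 RPKM in homozygous, 1176, 1237 and 1215 RPKM in heterozygous and 1264, 1282 and 851.8 RPKM in control cortex. Rps2, near the mRNA entry channel, had 453.2, 405.2 and 251.0 RPKM in homozygous, 361.3, 373.8 and 350.2 RPKM in heterozygous and 388.8, 409.4 and 233.6 RPKM in control cortex. Homozygous library 3 and control library 3 were low for both genes, and the other 7 libraries lay together. Both genes are on chromosome 17. Of 12159 genes tested, 3 set the same 2 libraries at least 0.3 (log2) below the rest. They were Rps18 and Rps2 themselves, whose values defined the pattern, and H2-D1. H2-D1 is also on chromosome 17, which holds 588 tested genes.

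Rps3a1, on chromosome 3, encodes another small subunit protein and had a different pattern. It had 898.0, 566.8 and 527.6 RPKM in homozygous, 479.1, 491.9 and 512.0 RPKM in heterozygous and 788.9, 781.5 and 779.7 RPKM in control cortex. Homozygous library 1 lay with the controls, while the other 5 mutant libraries lay together below them. No other gene of the 12159 split the libraries this way by at least 0.3 (log2). The cause of these 3 patterns was not tested.

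**Figure D1:**
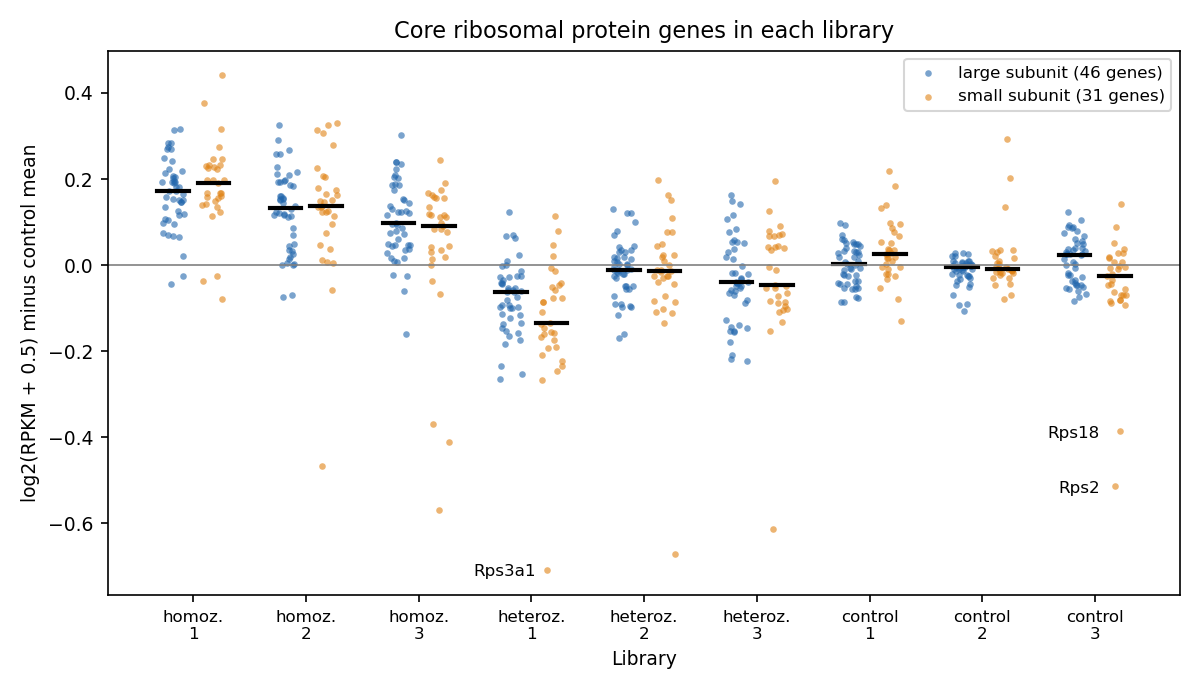
Each point is 1 of the 77 core genes in 1 library: log2(RPKM + 0.5) minus the mean of that gene over the 3 control libraries, with large subunit genes in blue, small subunit genes in orange and black bars at the median. The medians over all core genes were 0.17, 0.14 and 0.10 in the homozygous libraries and between -0.09 and 0.02 in the other 6; the low orange points are Rps3a1, Rps18 and Rps2.

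The first comparison asks how these genes stood in cortex labelled as homozygous for the Sfpq knockout. In homozygous cortex a part of the ribosomal protein genes of each subunit was higher than in control cortex, by small amounts. Of 85 members tested, 32 were called higher and 0 lower (limma, Benjamini-Hochberg adjusted p under 0.05 over all genes), 37.6% of them. Over all 12159 genes tested, 14.4% were called higher and 19.9% lower. The called members were 1.103 to 1.226 times their control level. The median log2 change of the 85 was 0.14, against -0.01 for all genes. In bulk cortex, more cells of a type and more RNA per cell cannot be told apart.

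The direction was wider than the calls. The log2 change was above 0 for 77 of the 85 members, against 48.4% of all genes tested. All 3 homozygous libraries lay above all 3 control libraries for 48 of the 85, against 20.6% of all genes. The count of calls moved with the libraries. It was 16 without control library 2 and 19 without homozygous library 3 and control library 3 together. Without homozygous library 1 it was 19 higher with 1 lower (Rps3a1). Over all genes, 9.65%, 11.2% and 11.3% were called higher in those fits, in the same order. The count of members called also moved with the scale, to 54 with quantile normalization and 50 with each library scaled to one sum, all higher. Over all genes, those scalings gave 2568 higher and 2167 lower, and 2295 higher and 2025 lower, in place of 1747 higher and 2423 lower. Under all 22 alternatives, 13 of the 85 members (15.3%) stayed called higher, against 5.92% of all genes.

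Large and small subunit genes were called at similar shares. Of 46 core large subunit genes 18 were called higher, with a median log2 change of 0.15. Of 31 core small subunit genes 12 were called higher, with a median of 0.12. The median large subunit gene stood 0.17, 0.13 and 0.10 above its control mean in the 3 homozygous libraries, and the median small subunit gene 0.19, 0.14 and 0.09. The large minus small difference of these medians was -0.0192, -0.0052 and 0.0061 in the homozygous libraries and -0.0249, 0.0039 and 0.0506 in the control libraries, which overlapped. The summed RPKM of the large subunit genes was 1.183, 1.179 and 1.243 times that of the small subunit genes in homozygous cortex, 1.233, 1.201 and 1.182 times in heterozygous cortex and 1.188, 1.179 and 1.232 times in control cortex. These ratios overlapped between all 3 groups.

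The share of all RPKM held by the core genes was 12.13%, 12.11% and 11.69% in homozygous, 10.29%, 10.72% and 10.68% in heterozygous and 10.76%, 10.65% and 10.66% in control cortex. Every homozygous library lay above every other library. The mean share was 11.98 ± 0.25% in homozygous, 10.56 ± 0.24% in heterozygous and 10.69 ± 0.06% in control cortex (SD, n = 3 each). The sum of all RPKM averaged 362400 ± 7497 in homozygous, 362400 ± 1956 in heterozygous and 374900 ± 2168 in control cortex.

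The core large subunit genes with the smallest adjusted p were Rpl17, Rpl23, Rpl27a, Rpl6, Rpl37, Rpl4 and Rpl14. Rpl17, whose protein sits beside the exit of the peptide tunnel, had 174.5, 167.9 and 165.2 RPKM in homozygous, 137.6, 140.3 and 138.3 RPKM in heterozygous and 145.2, 140.1 and 135.9 RPKM in control cortex. Every homozygous library was above every other library, while heterozygous and control libraries overlapped. The log2 change was 0.27 ± 0.04 (SE) in homozygous against control cortex (limma adjusted p = 0.000807). With 3 libraries on each side, a two-sided exact permutation test cannot go below p = 0.1, its value for Rpl17 and for every other gene whose groups do not overlap.

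Rpl23, whose protein binds the p53 ubiquitin ligase Mdm2 in human cells, rose by 0.25 ± 0.05 (SE, log2; limma adjusted p = 0.00146), with 395.5, 397.4 and 369.5 RPKM in homozygous, 340.1, 347.8 and 336.9 RPKM in heterozygous and 326.5, 326.8 and 320.5 RPKM in control cortex. For Rpl23 the 3 groups did not overlap, with heterozygous cortex between the others. Rpl4, whose loop lines the exit tunnel, had 804.7, 826.6 and 851.7 RPKM in homozygous, 689.6, 682.3 and 676.3 RPKM in heterozygous and 650.8, 691.3 and 733.0 RPKM in control cortex (homozygous against control: log2 change 0.26 ± 0.05, limma adjusted p = 0.00367). The heterozygous values of Rpl4 fell inside the control range. Rpl27a had 583.6, 564.4 and 568.9 RPKM in homozygous, 462.8, 480.8 and 465.8 RPKM in heterozygous and 467.3, 483.6 and 495.7 RPKM in control cortex (0.25 ± 0.05, limma adjusted p = 0.00177). Rpl6 and Rpl37 rose by 0.21 ± 0.04 and 0.22 ± 0.04, with limma adjusted p = 0.00192 and 0.00259.

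Rpl14 had the largest change of any member in homozygous against control cortex, 0.29 ± 0.07 (limma adjusted p = 0.00703), with 498.7, 502.5 and 473.1 RPKM in homozygous, 407.4, 374.4 and 442.5 RPKM in heterozygous and 409.6, 372.0 and 422.1 RPKM in control cortex. Its heterozygous and control libraries covered the same range. Rpl13a, which in human cells also serves an interferon-driven translation block, had the lowest log2 change of the core large subunit genes. It had 949.7, 931.8 and 876.0 RPKM in homozygous and 979.1, 919.7 and 1040 RPKM in control cortex. Those groups overlapped, and the change of -0.09 ± 0.07 did not pass (limma adjusted p = 0.343).

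Among small subunit genes, Rps6 had the smallest adjusted p. Its protein is the substrate of the S6 kinases and a common readout of mTORC1 activity. Rps6 had 690.4, 659.3 and 649.5 RPKM in homozygous, 561.7, 575.4 and 556.6 RPKM in heterozygous and 583.5, 577.9 and 585.0 RPKM in control cortex, and rose by 0.19 ± 0.05 (log2) in homozygous against control cortex (limma adjusted p = 0.0075). Homozygous libraries were highest and heterozygous libraries lowest, with no overlap. The largest rises were those of Rps13 and Rps10. Rps13 had 154.5, 154.1 and 139.9 RPKM in homozygous, 123.3, 130.7 and 132.1 RPKM in heterozygous and 136.6, 118.0 and 118.0 RPKM in control cortex (homozygous against control: 0.27 ± 0.07, limma adjusted p = 0.00913).

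Rps10, mutated in some human patients with Diamond-Blackfan anaemia, had 242.6, 256.2 and 245.3 RPKM in homozygous, 185.5, 205.3 and 237.3 RPKM in heterozygous and 202.6, 212.2 and 206.5 RPKM in control cortex (homozygous against control: 0.26 ± 0.08, limma adjusted p = 0.021). Rps10 was called under 18 of 22 alternatives, and not without homozygous library 2 (adjusted p = 0.0641), without control library 1 (0.0553), without homozygous library 3 and control library 3 together (0.0844), or with no filter on low genes (0.0514). Rps20 had 638.4, 647.4 and 643.3 RPKM in homozygous and 690.6, 666.7 and 664.9 RPKM in control cortex. All its homozygous libraries were lower, but the change of -0.07 ± 0.07 did not pass (limma adjusted p = 0.481).

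Rps3a1 had the lowest log2 change of all members in homozygous against control cortex, -0.28 ± 0.15, which did not pass (limma adjusted p = 0.183). Without homozygous library 1 the change was -0.52. That shift is fixed by leaving out the library that lay at the control level for this same gene, so no test is read from it. Without homozygous library 2 or 3 the change did not pass (limma adjusted p = 0.436 and 0.54). The changes of Rps18 and Rps2 were 0.11 ± 0.19 and 0.10 ± 0.22 (limma adjusted p = 0.694 and 0.765), with standard errors about as large as the change or larger.

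**Figure D2:**
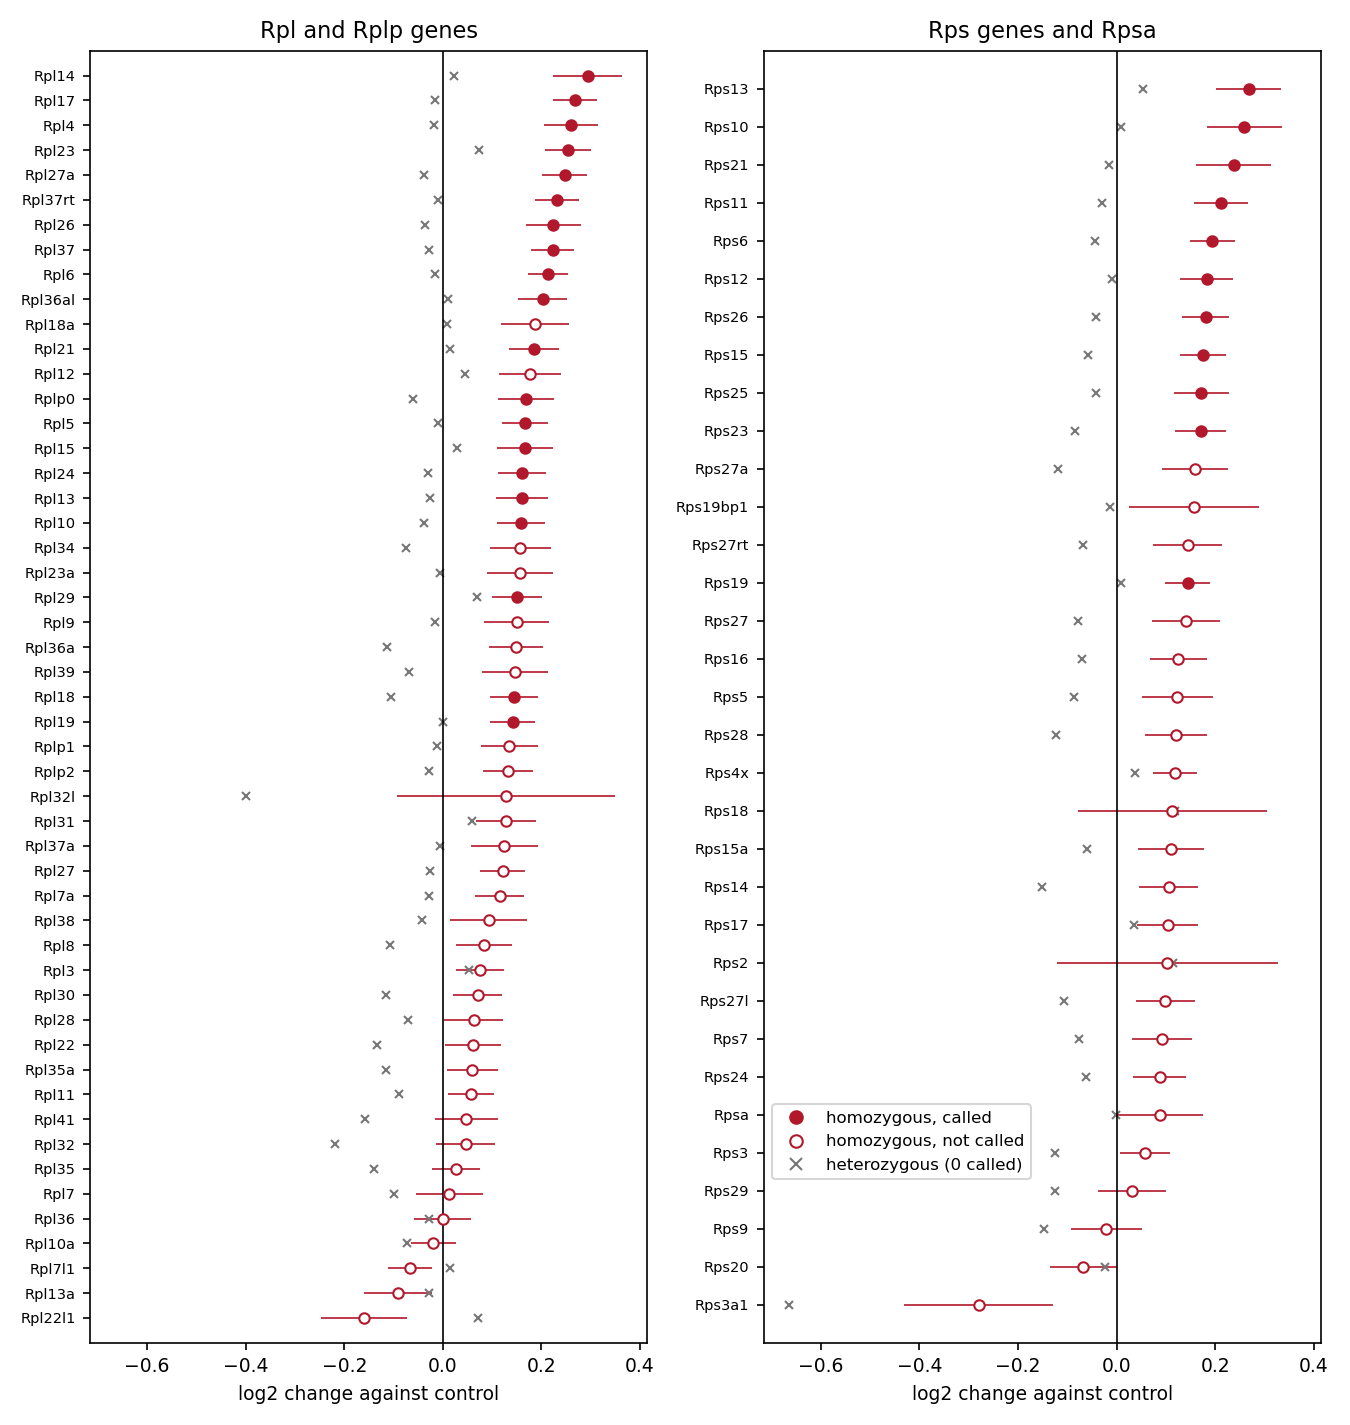
Log2 change against control of the tested members, 1 of which is not drawn, large subunit symbols at left and small subunit symbols at right, sorted by the change in homozygous cortex. Red circles with bars are homozygous cortex with its standard error, filled where called and open where not; grey crosses are heterozygous cortex, where 0 were called. Most circles lie right of 0, up to 0.29, and Rps3a1 is lowest in both mutants.

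The levels themselves covered a wide range. Compared per length, the median core gene had 407.8 RPKM in homozygous, 362.3 RPKM in heterozygous and 382.4 RPKM in control cortex. The lowest core gene was Rpl29 (group means of 55.05, 52.01 and 49.52 RPKM in homozygous, heterozygous and control cortex). The highest was Rps21 (2508, 2105 and 2127 RPKM in the same order), so the span was 45.6-fold in homozygous, 40.5-fold in heterozygous and 42.9-fold in control cortex. Small subunit genes had a higher median than large subunit genes in every group, 513.2 against 309.5 RPKM in homozygous, 467.2 against 281.2 RPKM in heterozygous and 464.4 against 285.3 RPKM in control cortex. The core genes had a lower median spread between embryos than all genes tested. Those reach down to a mean of 0.5 RPKM, and no set of like level was compared. The median SD of log2 levels within a group was 0.051 in homozygous, 0.054 in heterozygous and 0.046 in control cortex for core genes, against 0.087, 0.082 and 0.091 for all genes tested.

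The most abundant large subunit genes were Rpl26, Rpl7 and Rpl8. Rpl26, whose protein binds p53 mRNA in human cells, had 2276, 2157 and 2181 RPKM in homozygous, 1794, 1911 and 1820 RPKM in heterozygous and 1853, 1875 and 1934 RPKM in control cortex, and was called in homozygous against control cortex (0.22 ± 0.06, limma adjusted p = 0.00974). Rpl7 had 2110, 1874 and 1996 RPKM in homozygous and 1997, 1987 and 1934 RPKM in control cortex, which overlapped (0.01 ± 0.07, limma adjusted p = 0.903). Rpl8, whose protein lies by the peptidyl transferase centre, had 1663, 1519 and 1602 RPKM in homozygous and 1466, 1489 and 1555 RPKM in control cortex (0.08 ± 0.06, limma adjusted p = 0.287). Rpl26 was above Rpl7 in every homozygous library, while the levels of these neighbours overlapped in heterozygous cortex.

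Of the most abundant small subunit genes, Rps21 had 2435, 2664 and 2424 RPKM in homozygous, 1920, 2160 and 2233 RPKM in heterozygous and 2010, 2111 and 2259 RPKM in control cortex (homozygous against control: 0.24 ± 0.08, limma adjusted p = 0.0321). It was called under 16 of 22 alternatives, and not without homozygous library 2 (adjusted p = 0.115), homozygous library 3 (0.0517), control library 1 (0.101) or control library 2 (0.0925), with no filter on low genes (0.107), or with sex as a covariate (0.0532). Rps14, whose loss of 1 copy causes the anaemia of the human 5q deletion syndrome, had 1893, 1713 and 1748 RPKM in homozygous, 1434, 1510 and 1536 RPKM in heterozygous and 1630, 1664 and 1679 RPKM in control cortex. The 3 groups of Rps14 did not overlap, but only homozygous against heterozygous cortex passed (0.26 ± 0.06, limma adjusted p = 0.00664; 0.197 against control). Rps9, also near the mRNA entry channel, had 1474, 1524 and 1473 RPKM in homozygous and 1382, 1499 and 1669 RPKM in control cortex, and did not pass (-0.02 ± 0.07, limma adjusted p = 0.855).

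**Figure D3:**
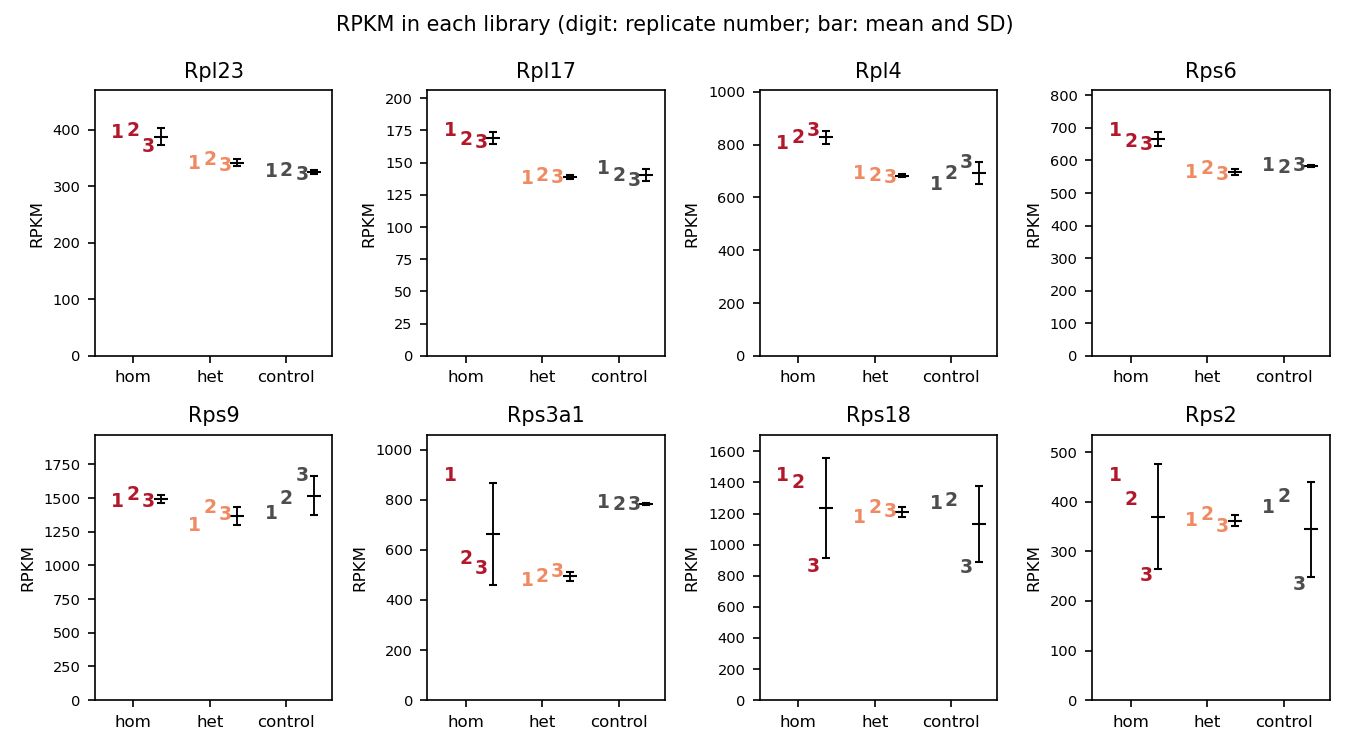
RPKM of 8 members in every library, with homozygous libraries in red, heterozygous in orange and control in grey, the digit giving the replicate number and the black mark the mean with its SD (n = 3). Rpl23, Rpl17, Rpl4 and Rps6 are above both other groups in all 3 homozygous libraries, Rps9 overlaps, and in Rps3a1, Rps18 and Rps2 single libraries lie far from their group.

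The ribosomal stalk, which recruits elongation factors, is built from Rplp0, Rplp1 and Rplp2. Rplp0 had 942.6, 845.1 and 852.2 RPKM in homozygous, 733.7, 755.7 and 759.7 RPKM in heterozygous and 785.8, 758.2 and 802.2 RPKM in control cortex. It was called in homozygous against control cortex (0.17 ± 0.06, limma adjusted p = 0.0383), but under only 10 of 22 alternatives, with an adjusted p of up to 0.14 without control library 2. Rplp1 and Rplp2 had changes of 0.14 ± 0.06 and 0.13 ± 0.05 that did not pass (limma adjusted p = 0.0954 and 0.0681), though all homozygous libraries were above all control libraries for both. Rpsa, a small subunit protein also known as a laminin receptor, had 178.6, 176.0 and 164.4 RPKM in homozygous and 156.7, 178.7 and 153.7 RPKM in control cortex, which overlapped (limma adjusted p = 0.481).

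Rpl5 and Rpl11 form, with 5S RNA, the particle that inhibits Mdm2 when ribosome assembly fails. Rpl5 had 309.2, 307.2 and 294.1 RPKM in homozygous, 265.3, 273.5 and 266.5 RPKM in heterozygous and 280.3, 270.0 and 260.3 RPKM in control cortex (homozygous against control: 0.17 ± 0.05, limma adjusted p = 0.0167). Without any one of homozygous libraries 1 and 2 and control libraries 2 and 3, its adjusted p was between 0.0502 and 0.0562. Rpl11 had 318.2, 305.6 and 298.7 RPKM in homozygous, 269.2, 277.4 and 287.1 RPKM in heterozygous and 290.8, 294.8 and 300.8 RPKM in control cortex. Its homozygous and control libraries overlapped (0.06 ± 0.05, limma adjusted p = 0.383). Of their partners, Mdm2 had a log2 change of -0.14 ± 0.06 (limma adjusted p = 0.105), Trp53 of -0.08 ± 0.07 (0.369), and the p53 inhibitor Mdm4 fell by 0.23 on the log2 scale (0.012).

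Gene structure and position were set beside the calls as a description. Over all genes tested, 14.4% were called higher in homozygous against control cortex. Of 30 core genes with an annotated snoRNA gene inside them 14 were called higher in homozygous cortex, with a median log2 change of 0.16. Of the 47 without one, 16 were called, with a median of 0.12. Of the 4 X-linked core genes only Rpl10, needed for subunit joining in yeast, was called (0.16 ± 0.05, limma adjusted p = 0.0253, but 0.0926 without homozygous library 1, 0.0935 without control library 2 and 0.0546 without control library 3). For all 4, every homozygous library lay above every control library, against 20.6% of all genes. X-linked Rps4x had 503.8, 488.0 and 495.0 RPKM in homozygous, 471.7, 456.3 and 478.5 RPKM in heterozygous and 462.2, 451.6 and 455.8 RPKM in control cortex, and did not pass (limma adjusted p = 0.0608).

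Of the 11 paralogs and copies 7 were tested, and 2 were called higher in homozygous against control cortex, Rpl36al and Rpl37rt. Over all genes 14.4% were called higher. The 4 untested ones were at or near 0: Rpl10l was listed at 0 in every library, Rpl3l reached 0.0187 RPKM, Rpl39l 0.2016 RPKM and Rps23rg1 0.2307 RPKM. Rpl36al, a near twin of Rpl36a, had 262.9, 254.4 and 237.7 RPKM in homozygous, 213.8, 226.3 and 220.5 RPKM in heterozygous and 216.5, 224.9 and 214.1 RPKM in control cortex (homozygous against control: 0.20 ± 0.05, limma adjusted p = 0.00972). Rpl36a itself did not pass (0.15 ± 0.05, limma adjusted p = 0.0575). Rpl7l1, a paralog of Rpl7, had 38.75, 39.43 and 37.91 RPKM in homozygous and 39.94, 40.91 and 40.77 RPKM in control cortex, lower in every homozygous library without passing (limma adjusted p = 0.289).

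Rpl22l1 is the paralog of Rpl22, and in mouse Rpl22 is known to repress it. Rpl22l1 had 129.8, 142.6 and 118.7 RPKM in homozygous, 141.2, 162.3 and 155.4 RPKM in heterozygous and 162.1, 143.8 and 131.6 RPKM in control cortex. Rpl22 had 250.9, 234.5 and 239.0 RPKM in homozygous, 208.0, 226.6 and 198.9 RPKM in heterozygous and 223.0, 235.7 and 235.4 RPKM in control cortex. Rpl22l1 stood at 54.1 ± 5.95% of Rpl22 in homozygous, 72.5 ± 5.18% in heterozygous and 63.2 ± 8.61% in control cortex (SD, n = 3 each). The homozygous and heterozygous shares did not overlap, and both overlapped the control shares. For Rpl22l1 the change between homozygous and control libraries, -0.16 ± 0.09 (log2), did not pass (limma adjusted p = 0.184).

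Several copies are so alike that the deposited values may share reads, and the labels do not say how reads with several matches in the genome were counted. Rpl37rt stood at 83.7% to 88.3% of Rpl37 in the 9 libraries, and Rps27rt at 95.7% to 98.2% of Rps27, so neither pair gives independent evidence. The expressed pseudogene Rpl34-ps1, outside the members, stood at 97.8% to 97.9% of Rpl34 in every library. The start regions of Rps27 (chr3:90213624-90213653, minus strand) and Rps27rt (chr9:114982715-114982744, minus strand) are shown because they share a stretch of 24 bases, marked in capitals, in RefSeq (GRCm38.p6), from 5 bases before to 25 after the start.
Rps27: tcgctcCTTTCCGGCGGTGACGACCTCCCT
Rps27rt: ccttgCTTTCCGGCGGTGACGACCTCCCTa
Rps27l, the paralog that human p53 induces, had 111.7, 102.3 and 97.24 RPKM in homozygous, 85.11, 93.49 and 90.94 RPKM in heterozygous and 97.79, 99.81 and 92.47 RPKM in control cortex. Rps27 and Rps27l were not called in homozygous against control cortex (limma adjusted p = 0.141 and 0.237).

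The second comparison asks whether losing 1 copy of Sfpq moved these genes. In heterozygous against control cortex 0 of 85 members and 0.0% of all 12159 genes were called (limma), and the smallest adjusted p of a member was 0.526, for Rps3a1. At an unadjusted limma p under 0.05 there were 9 members, all lower, and 5.75% of all genes. They were Rps3a1, Rpl32, Rpl35, Rps14, Rpl41, Rps3, Rpl22, Rpl30 and Rpl35a. The log2 change was above 0 for 20 of the 85, against 45.8% of all genes. All 3 heterozygous libraries lay below all 3 control libraries for 17 members, against 7.54% of all genes. The median was -0.03 for large and -0.04 for small subunit genes, against -0.01 for all genes, but it was 0.02 and 0.01 with quantile normalization and 0.02 and 0.0042 with each library scaled to one sum. Other abundant genes, averaging 100 RPKM or more, had a median of -0.03 in heterozygous against control cortex, with all heterozygous libraries lower for 83 of 517. Other genes spanning under 10 kb had a median of -0.04, with all heterozygous libraries lower for 390 of 2941.

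In the heterozygous libraries the median core gene lay -0.09, -0.01 and -0.04 (log2) from its control mean, so library 1 was lowest. Rps3a1 had the largest difference, -0.66 ± 0.15, with all heterozygous libraries below all control libraries. Its limma adjusted p was 0.00336 when the heterozygous and control libraries were fitted alone, and 0.0011 without homozygous library 1, against 0.526 with all 9 libraries. Both fits leave out homozygous library 1, whose Rps3a1 level widens the spread in the fit of all 9, so the smaller values follow in part from that choice. Rpl32 had 1121, 1197 and 1155 RPKM in heterozygous and 1414, 1344 and 1286 RPKM in control cortex, a log2 change of -0.22 ± 0.06 that did not pass (limma adjusted p = 0.565). Rpl35 had 722.5, 766.0 and 744.6 RPKM in heterozygous and 816.8, 836.0 and 807.5 RPKM in control cortex, again with no overlap and without passing (limma adjusted p = 0.735).

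The third comparison sets homozygous against heterozygous cortex and shares the homozygous libraries with the first. Of the 85 members 52 were called higher and 0 lower (limma), 61.2%, against 14.6% of all genes called higher and 18.3% lower. The median log2 change was 0.18 for the members and 0.00 for all genes. Of the core genes 30 of 46 in the large subunit (median 0.18) and 18 of 31 in the small subunit (median 0.20) were called. The count was 28 without homozygous library 1 and 29 higher with 1 lower without heterozygous library 1. Over all genes, 10.7% and 11.3% were called higher in those fits. The smallest adjusted p were those of Rpl17 (0.29 ± 0.04, limma adjusted p = 0.000565), Rpl27a (0.28 ± 0.05, 0.000757), Rpl37 (0.25 ± 0.04, 0.00127) and Rpl6 (0.23 ± 0.04, 0.00132).

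The log2 changes of Rps18 and Rps2 in homozygous against heterozygous cortex were -0.01 ± 0.19 and -0.01 ± 0.22 (limma adjusted p = 0.986 and 0.975). Without homozygous library 3 and control library 3 they were 0.23 and 0.24, a shift fixed by leaving out the libraries that were low for these same genes, so no test is read from it. Under the other 21 alternatives, leaving out homozygous library 3 alone among them, neither gene was called.

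Genes that work with the ribosome were described from other lists, all in homozygous against control cortex with limma, where 14.4% of all genes were called higher and 19.9% lower. The ribosomal protein Fau, made as a fusion with a ubiquitin-like domain, and Rack1, a signalling scaffold on the small subunit, lie outside the symbol rule. They had log2 changes of 0.19 ± 0.07 and 0.12 ± 0.06 that did not pass (limma adjusted p = 0.0544 and 0.124). Of 53 large subunit assembly factors 19 were called higher and 1 lower, with a median of 0.14. Of 43 small subunit assembly factors 14 were called higher and 3 lower, with a median of 0.12.

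Among the assembly factors, the Pes1 partner Bop1 had 17.57, 17.14 and 17.75 RPKM in homozygous and 13.96, 14.38 and 14.90 RPKM in control cortex (0.27 ± 0.05, limma adjusted p = 0.00251). The nucleolar GTPase Gtpbp4 rose by 0.30 ± 0.05 and Heatr3, which helps carry Rpl5 into the nucleus of human cells, by 0.34 ± 0.05 (limma adjusted p = 0.00144 and 0.00039). Utp4, Utp3 and Utp6, of the early small subunit processome, rose by 0.49 ± 0.06, 0.41 ± 0.06 and 0.28 ± 0.05 (limma adjusted p = 9.53e-05, 0.000241 and 0.000694). Of 16 genes of the RNA polymerase I machinery, which transcribes ribosomal RNA, 4 were called higher and 0 lower, with a median of 0.11. Its shared subunit Polr1d had 67.38, 64.16 and 68.98 RPKM in homozygous and 41.50, 44.13 and 47.97 RPKM in control cortex (0.58 ± 0.06, limma adjusted p = 1.78e-05). The log2 change of Polr1d ranged from 0.24 to 0.64 over the 22 alternatives, and it was called under each.

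A further list held 33 genes of translation elongation, translation initiation and TOP mRNAs, and which of them carry a TOP motif was not examined. Of the 33, 13 were called higher and 0 lower, with a median of 0.12. They included the elongation factor Eef2 (0.23 ± 0.07, limma adjusted p = 0.0242, lost under 4 of 22 alternatives) and the initiation factor subunits Eif3g (0.37 ± 0.05, 0.000279) and Eif3m (0.23 ± 0.04, 0.00144). Eef1a1, the most abundant elongation factor, had 6352, 6418 and 6181 RPKM in homozygous and 5640, 5507 and 5921 RPKM in control cortex, with no overlap, and did not pass (limma adjusted p = 0.118). The intermediate filament gene Vim, listed for its TOP mRNA, also rose (0.31 ± 0.06, 0.00139).

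Of 21 genes of mTORC1 and translation control 1 was called higher, the kinase Rps6ka1 (0.33 ± 0.07, limma adjusted p = 0.00479), and 5 lower, with a median of -0.08. The 5 are a share close to the 19.9% of all genes called lower. The transcription factor Mycn, known to drive ribosomal genes, had 13.99, 17.06 and 13.12 RPKM in homozygous, 18.52, 19.01 and 17.48 RPKM in heterozygous and 18.82, 19.68 and 20.61 RPKM in control cortex, and fell by 0.42 on the log2 scale (limma adjusted p = 0.00317). Myc, at 0.4764 RPKM on average in homozygous and 0.6646 RPKM in control cortex, fell by 0.25 (limma adjusted p = 0.0401, called under 10 of 21 alternatives). Maf1, the repressor of RNA polymerase III, fell by 0.30 (limma adjusted p = 0.00396).

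The ribosome of mitochondria did not show the same calls. Of 78 mitochondrial ribosomal protein genes 12 were called higher and 10 lower, with a median of 0.03. The falls were the larger ones, with Mrps9 at 11.48, 11.24 and 10.16 RPKM in homozygous, 34.83, 33.52 and 29.95 RPKM in heterozygous and 35.89, 39.49 and 39.68 RPKM in control cortex (-1.76 ± 0.07, limma adjusted p = 3.17e-08). Mrps6 and Mrps27 fell by 1.10 and 0.93 on the log2 scale (limma adjusted p = 6.39e-06 and 2.04e-05). Of 37 proteasome genes 5 were called higher and 2 lower, with a median of 0.03; the one with the smallest adjusted p, Psmc3ip, fell by 0.57 and is a meiotic recombination factor taken by its symbol. Of 517 other abundant genes, averaging 100 RPKM or more, 12.2% were called higher, with a median of -0.03. Of 2941 other genes spanning under 10 kb 14.5% were called higher, with a median of -0.0012. The differences between these lists and the ribosomal protein genes were not tested.

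**Figure D4:**
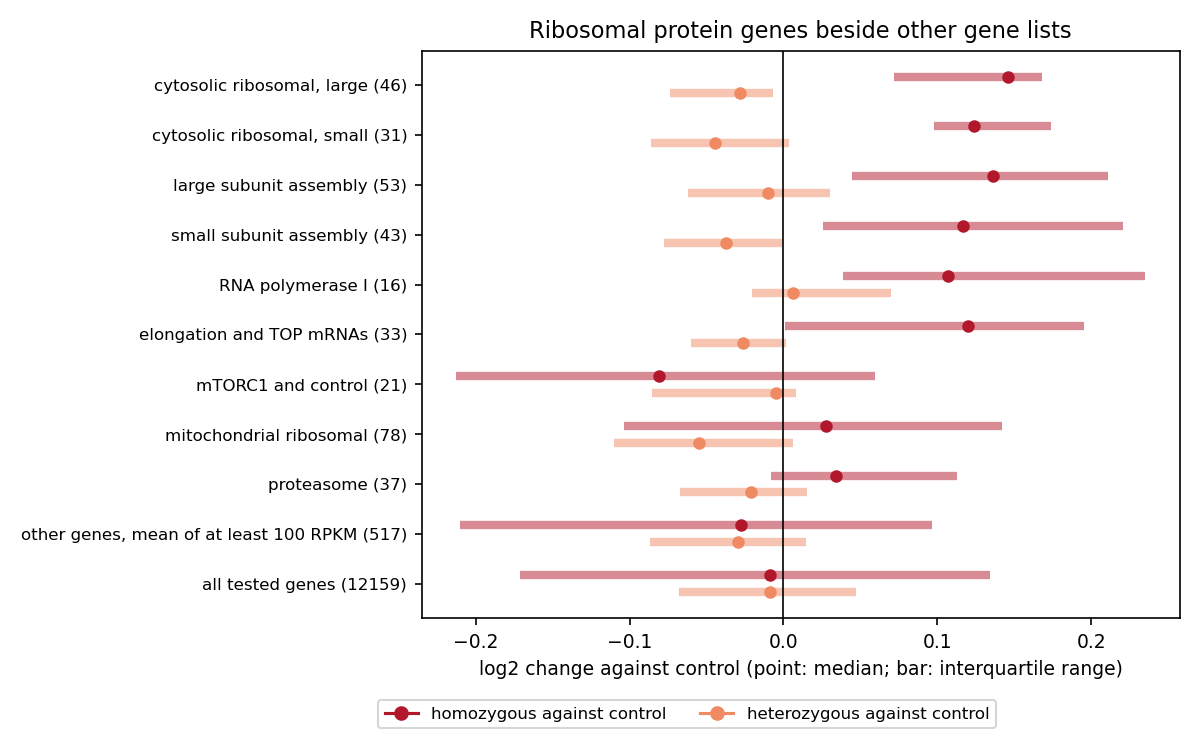
Median log2 change against control (point) and interquartile range (bar) for each list, with the number tested in brackets, in homozygous cortex (red) and heterozygous cortex (orange). The red medians of the cytosolic ribosomal, assembly, RNA polymerase I and TOP mRNA lists lie between 0.11 and 0.15, and those of the mitochondrial ribosomal and proteasome lists at 0.03; the orange medians of the lists drawn lie between -0.05 and 0.01.

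Some markers of other cells differed between homozygous and control cortex. Of 7 microglia markers 3 were called higher and 0 lower in homozygous against control cortex (limma), C1qa, C1qb and Aif1. Over all genes 14.4% were called higher and 19.9% lower. These 3 genes were low, with group means between 1.472 and 4.673 RPKM. The microglia markers summed to 17.86 to 24.76 RPKM in homozygous, 14.22 to 17.89 RPKM in heterozygous and 13.55 to 15.32 RPKM in control libraries. Of 10 erythroid markers 0 were called higher and 2 lower, Slc4a1 among them, a share close to the 19.9% of all genes called lower. All 10 had a log2 change below 0, with a median of -0.33, against -0.01 for all genes. Every homozygous library lay below every control library for 7 of the 10, against 3112 of all 12159 genes. In heterozygous against control cortex all 10 were also below 0, with a median of -0.23. The erythroid markers summed to 2573 to 2979 RPKM in homozygous, 2486 to 3739 RPKM in heterozygous and 3116 to 3843 RPKM in control libraries. Of 10 meningeal and vascular markers 0 were called. No marker was at 0 in all libraries, and the part of these cells in the ribosomal protein result was not tested.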

How the data were processed

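For every library the authors deposited a table of 30978 RefSeq transcripts with their RPKM, per the file headers. The submitters' processing notes name CASAVA 1.8.2, TopHat 1.4.1 and the build mm9. They name neither the program and annotation behind the RPKM values nor how strand and multiple matches were handled, so values of overlapping, antisense and near-identical genes are uncertain. No counts were given, and no count test was run. Depth was estimated from the steps between low values, of which 67.9% to 72.1% lay near whole reads.

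Names came from the RefSeq gene table (30507 transcripts) and GENCODE (178), and 293 unnamed transcripts were left out. A gene is represented by its transcript with the highest mean RPKM, and 77 of the 89 members have 1 transcript. All 9 libraries entered one limma 3.58.1 fit (R 4.3.3) of log2(RPKM + 0.5) on genotype, moderated along the trend of variance with level, over the 12159 genes averaging 0.5 RPKM or more. Called means a Benjamini-Hochberg adjusted p under 0.05 over those genes. The procedure was tested on simulated data. The added 0.5 understates changes of low genes. Each library is 1 embryo, and no 2 libraries held the same values.

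Genes named are Sfpq; the 8 members with the smallest adjusted p in each direction against control and 4 in the other comparisons; per subunit, the 3 most abundant and the 2 with the largest change up and down; stalk and other well-known members; paralogs with their counterparts; and the 3 genes with the smallest adjusted p of each other list, with a few well-known ones. Rps18, Rps2, Rps6, Rpl10 and the members listed by unadjusted p were added after their values were seen. The members and lists were chosen with earlier results of these data known. A few genes of these lists are counted but not reported by name here. Promoter windows (RefSeq, GRCm38.p6) matched 57 of 77 core genes by symbol. Alternatives changed the pseudocount, the filter, the scaling, the transcript choice, the libraries fitted and the trend, or added sex or the replicate number.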

Additional observations from a re-analysis of the deposited data

How the results depend on the processing

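Of 85 members, 32 were called in homozygous against control cortex. The count was 54 with quantile normalization, 50 scaled to one sum and 21 with limma without a trend. It was 19 without control library 3 and homozygous library 3 (chosen after seeing the data), and 16 to 33 with 1 library left out. Over all genes 21.1%, 18.9%, 13.6% and 11.2% were called higher in the same order, and 9.65% to 15.1% with 1 library left out. The median log2 change of large subunit genes, 0.15, was 0.1964 and 0.1946 under those 2 scalings, and that of small subunit genes, 0.12, was 0.2114 with quantile normalization. In heterozygous against control cortex 1 member (Rps3a1) was called when these groups were fitted alone, and 0 to 1 with 1 library left out. The large subunit median, -0.03, was 0.0203 and 0.0202 under those scalings. In homozygous against heterozygous cortex 28 to 55 members were called with 1 library left out, against 52. Over all genes 10.2% to 15.4% were called higher in those fits, against 14.6%. Rps18 and Rps2 turned to 0.2346 and 0.2446 in homozygous against heterozygous cortex without control library 3 and homozygous library 3. The cause of these moves was not tested, beyond the fewer libraries of those left out.

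With the replicate number as a block, the counts were 29, 0 and 48 in the 3 comparisons in the same order. Same-numbered libraries correlated at 0.404, 0.0685 and 0.322 between homozygous and control cortex, and different-numbered ones from -0.4398 to 0.0963. In both groups library 1 was female and library 3 male. Between heterozygous and control cortex same-numbered libraries correlated from -0.0444 to 0.0109, and different-numbered ones from -0.0944 to 0.0937. Whether the numbers pair embryos was not tested. For single genes, 4978 results under other settings kept their call status, 88 gained and 149 lost the call. Another 2 passed in the other direction (Rps18 and Rps2, above). With 1 library left out, 3332 kept their call status, 43 gained and 243 lost the call. Uncalled changes near 0 also changed sign between alternatives, such as that of Rpl13a in homozygous against control cortex (-0.1355 to 0.1091).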

Other observations

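H2-D1, a major histocompatibility gene on chromosome 17 and no ribosomal gene, was the third gene low in homozygous library 3 and control library 3. It had 4.018, 3.423 and 1.998 RPKM in homozygous, 3.058, 3.149 and 3.245 RPKM in heterozygous and 3.018, 3.424 and 2.198 RPKM in control cortex. It was chosen after its values were seen.

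Expressed ribosomal pseudogenes, which the symbol rule leaves out, stood at different shares of their parent genes. Rps15a-ps6 stood at 74.5% to 91.4% of Rps15a over the 9 libraries, Rps15a-ps4 at 36.2% to 38.9%, and Rpl31-ps12 at 54.6% to 58.0% of Rpl31.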
